A study of Mus musculus with 20 samples.

Results

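The 10 apolipoprotein genes described here were Apoa1, Apoa2, Apoa4, Apoa5, Apob, Apoc1, Apoc3, Apoe, Apoh and Apom. They were found in the count table by their gene symbols, each of which matched a single row, so they are 10 of 55421 genes in the table and 10 of 22867 genes with at least 10 counts in total, which were the genes tested. Their levels were followed in 20 livers of wildtype mice, labelled female, that had received an AAV8 vector (a liver-directed virus) by injection into the blood. Per the series' design text they were then 6 months old. The study's text calls the mice of this time course male in one place and female in another. In every mouse the vector carried Cas9 of Staphylococcus aureus behind the Tbg promoter, which is active in hepatocytes, together with a U6-driven guide RNA. The guide of the HIRA arm cuts Hira, whose protein places histone H3.3 into chromatin, and the guide of the control arm cuts Rosa26, a neutral locus, so the controls carried Cas9 and a cut as well. Livers were taken 3 weeks or 6 months after injection, with 5 mice in each of the 4 groups. Editing by this vector is limited to the hepatocytes it reaches, and the other cells of the liver keep an intact gene. The 6-month mice were also older, so time since injection and age cannot be told apart.

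Apolipoproteins are the protein part of plasma lipoproteins, the particles that carry triglyceride and cholesterol through the blood, and hepatocytes are their main source. Apob is the large structural protein of very-low-density lipoprotein (VLDL), and Apoa1 and Apoa2 are the main proteins of high-density lipoprotein (HDL). The small exchangeable proteins Apoc1, Apoc3, Apoa5 and Apoe move between particles and set how fast they are broken down or taken up.

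Of the 10 genes, 4 lie next to each other. Apoa1, Apoc3, Apoa4 and Apoa5 fill 43.34 kb of chromosome 9 (GRCm38, 46228580 to 46271919), and Apoc1 and Apoe fill 9.708 kb of chromosome 7 (19689481 to 19699188). The sequences before the starts of Apoa1, Apoa4 and Apoa5 are shown because these are neighbours on the same strand whose transcripts differed in level and in spread between livers. They are from RefSeq (GRCm38.p6), which held an entry for 8 of the 10 genes, plus strand, 5′ to 3′, and end before the annotated transcript. Capitals mark the matches to CAAAGTNCA, an HNF4-type direct repeat, to TATAAA and to CACGTG, each searched on both strands.
Apoa1, chr9:46228380-46228579: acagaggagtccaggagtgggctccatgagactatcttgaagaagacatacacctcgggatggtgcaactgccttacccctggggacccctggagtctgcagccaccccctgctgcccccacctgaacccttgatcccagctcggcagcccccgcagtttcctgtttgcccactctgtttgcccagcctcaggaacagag
Apoa4, chr9:46240594-46240695: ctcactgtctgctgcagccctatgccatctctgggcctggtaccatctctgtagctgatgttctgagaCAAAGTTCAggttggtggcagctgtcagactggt
Apoa5, chr9:46268358-46268607: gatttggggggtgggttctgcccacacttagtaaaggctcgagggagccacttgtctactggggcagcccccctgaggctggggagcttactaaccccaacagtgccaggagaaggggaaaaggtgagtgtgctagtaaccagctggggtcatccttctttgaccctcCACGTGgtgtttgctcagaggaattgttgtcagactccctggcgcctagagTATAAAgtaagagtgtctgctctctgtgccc
Among the 8 genes, the CAAAGTNCA match was found in the window of Apoa4 alone (chromosome 9, 46240662 to 46240670), and 1.19% of all 32851 promoter windows held it. TATAAA was found for Apoa2, Apoa5, Apob and Apoe, and in 12.4% of all windows. CACGTG was found for Apoa5, and in 6.02% of all windows. None of these letters was found in the Apoa1 sequence printed, which says only that they are not in this stretch.

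Depth ranged from 19916430 to 24079736 counts per library. The library labelled HIRA 6 months replicate 5 went against its female label, with 9 Xist counts against 6286 to 8436 in the 19 others and 2041 counts over 4 Y-linked genes against 0 to 13. It is kept in the values below, and fold changes of the 10 genes that it moved by over 1.5 times are also given without it. At 3 weeks Hira itself had 128 to 171 counts with the Rosa26 guide and 87 to 127 with its own (edgeR log2 fold change -0.48 ± 0.14 SE, adjusted p = 0.197). At 6 months it had 105 to 157 and 109 to 136 counts (-0.10 ± 0.14, adjusted p = 0.794), so it did not pass the threshold of 0.05 at either time. These are RNA counts and do not measure editing or protein. The study's text reports loss of HIRA protein with this guide, by western blot against Rosa26 controls. Hepatocyte markers, led by Alb, summed at 3 weeks to 124374 to 158348 CPM (counts scaled to library size) with the Rosa26 guide and 140631 to 184000 CPM with the HIRA guide. At 6 months they summed to 95986 to 138820 and 118890 to 160533 CPM, so the liver label was met in every library. The median log2 fold change between arms over the 8 hepatocyte markers was 0.00 at 3 weeks and -0.04 at 6 months. The sums thus do not speak for the list as a whole. None of the markers of other liver cells passed in any edgeR comparison of all 20 libraries. At 3 weeks the median log2 fold change was 0.08 over stellate and fibroblast markers, 0.14 over sinusoidal endothelial and 0.60 over lymphocyte markers. It was -0.02 over biliary and 0.06 over Kupffer cell markers at that time. At 6 months the median log2 fold change was 0.48 over 8 stellate and fibroblast markers, 0.33 over 6 sinusoidal endothelial markers, 0.48 over 5 lymphocyte markers, 0.15 over 7 biliary markers and -0.11 over 7 Kupffer cell markers. The stellate list, led by Dcn, then summed to 191 to 333 CPM in the controls and 206 to 782 CPM in the HIRA livers, the endothelial list to 120 to 202 and 147 to 232 CPM, and the lymphocyte list to 10.9 to 52.1 and 10.1 to 46.7 CPM. Over both times, Cd79a, a B cell marker, and Oit3, an endothelial one, passed as higher when HIRA 6 months replicate 5 was left out (0.75 ± 0.20 and 0.39 ± 0.11, adjusted p = 0.0357 and 0.0485). The part of these cells in the values of Apom, Apoa4, Sdc1 and Asgr1 was not tested at either time. In bulk tissue, fewer cells of a type and less RNA per cell cannot be told apart.

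The 10 genes together held 3.68 to 5.64% of the counts of a library, with a median of 4.12%. Apoe had the most counts of them, being number 3 of all genes with 1.82% of all counts over the 20 libraries, and Apoa1 was number 8 with 0.719%. Apoa4 and Apom were the least counted, at 0.0214% and 0.0239% of all counts. The share of the 10 genes was 4.52% ± 0.695 (SD, n = 5) for the Rosa26 guide and 4.04% ± 0.270 for the HIRA guide at 3 weeks, and 4.08% ± 0.233 and 4.14% ± 0.456 at 6 months. The groups overlapped at both times.

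Levels were compared between genes only per kilobase of merged exons. On that scale Apoa2 stood highest, with a median over the 20 libraries of 9581 CPM per kb, followed by Apoe with 8451, Apoa1 with 5662 and Apoc1 with 3801 CPM per kb. Apoc3 followed with 1786, Apoh with 1415, Apoa5 with 441, Apom with 241, Apob with 185 and Apoa4 with 88.2 CPM per kb. The ranges of neighbours in this order overlapped except between Apoc1 and Apoc3, Apoh and Apoa5, and Apoa5 and Apom. Apoa2 was above Apoe in 19 of the 20 livers, and Apob was above Apoa4 in 17 of them. The deposited FPKM values, which depend on the transcript models used, placed Apoe above Apoa2, Apoc1 above Apoa1 and Apob above Apom. The order among those 3 pairs thus differed between the measures, which may differ in more than length, and the cause was not tested.

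**Figure D1:**
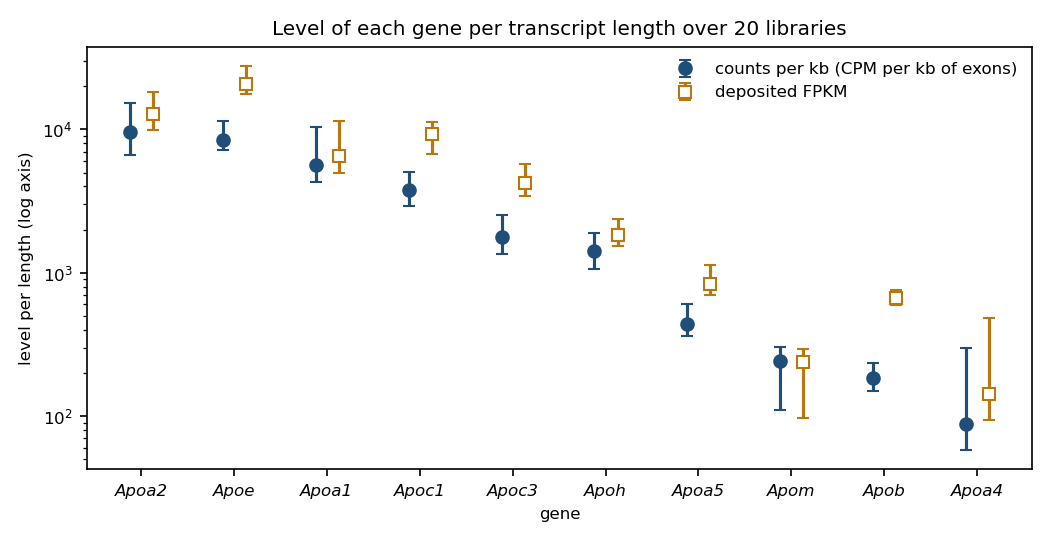
Level of each gene per transcript length over the 20 libraries on a log axis, as CPM per kb of merged exons (filled circles) and as deposited FPKM (open squares); points are medians and bars run from the lowest to the highest library. The levels run from 88.2 CPM per kb for Apoa4 to 9581 for Apoa2, and Apoa4 has the widest range of the 10.

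The HDL proteins come first. Apoa1, the main structural protein of HDL and the activator of the enzyme that esterifies its cholesterol, had log2 CPM values of 13.64, 12.80, 13.07, 13.18 and 12.85 in the 3-week controls, replicate 1 first. The HIRA livers of that time had 12.70, 12.87, 12.47, 12.55 and 12.78. At 6 months the Rosa26 group had 12.38, 12.77, 12.39, 12.57 and 12.86 and the HIRA group 12.82, 12.65, 12.58, 12.65 and 13.17. The 3-week controls were thus the highest group, 4 of them reaching no more than 13.18 and replicate 1 standing above, and they overlapped with each of the others.

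With the HIRA guide, the Apoa1 level was 27.1% lower at 3 weeks (log2 fold change -0.46 ± 0.16 SE, adjusted p = 0.345). Without Rosa26 3 weeks replicate 1 the difference was -0.30 ± 0.15. At 6 months it had the other sign, 0.18 ± 0.16 (adjusted p = 0.641), and without the HIRA library whose sex-linked counts went against its label it was 0.07 ± 0.16. The change in the guide effect from 3 weeks to 6 months was 0.64 ± 0.23 on the log2 scale, with an adjusted p of 0.685. Between the times, the Apoa1 level of the controls was 30.9% lower at 6 months than at 3 weeks (-0.53 ± 0.16, adjusted p = 0.143), and in the HIRA arm the difference was 0.11 ± 0.16 (adjusted p = 0.902), or -0.01 ± 0.16 without HIRA 6 months replicate 5. None of these passed the test in edgeR, and DESeq2 called the difference in the controls over time (-0.52, adjusted p = 0.0342).

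The 3-week controls also stood apart in clock genes. Summed CPM of 9 evening-phase clock genes, led by Nr1d1, was 169 to 285 in the 3-week controls against 300 to 734 in the 3-week HIRA livers, 361 to 576 in the 6-month controls and 214 to 732 in the HIRA group at 6 months. The 5 morning-phase genes, led by Nfil3, summed to 157 to 191 CPM in the 3-week controls and to 50.9 to 139, 50.6 to 128 and 45.6 to 150 CPM in the other 3 groups. Of the evening genes, Dbp, Ciart, Per3, Nr1d2 and Tef were higher with the HIRA guide at 3 weeks past the threshold, Dbp by 4.55 ± 0.79 on the log2 scale (adjusted p = 0.0251). With each of the 10 libraries of that time left out in turn, the 5 fold changes stayed positive, while Dbp and Nr1d2 kept their call in 4 fits each, Tef in 2 and Ciart and Per3 in 1 each. All 5 calls were lost without Rosa26 3 weeks replicate 1, 2 or 4 or HIRA 3 weeks replicate 4 or 5. The part of this difference in the apolipoprotein values was not tested.

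Apoa2, the second protein of HDL, ranged at 3 weeks from 12.26 to 12.84 log2 CPM with the Rosa26 guide and from 12.17 to 12.44 with the HIRA guide, and from 12.06 to 12.66 and from 11.80 to 13.01 at 6 months. Its fitted differences between arms were -0.20 ± 0.18 and -0.06 ± 0.18 on the log2 scale, with 95% intervals of -0.58 to 0.17 and -0.43 to 0.32. The highest and the lowest value of Apoa2 were both in the HIRA group at 6 months, and the highest was that of replicate 5. Without that library the 6-month difference of Apoa2 was -0.27 ± 0.15 (adjusted p = 0.360).

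Apom, a lipocalin on HDL that carries sphingosine-1-phosphate, had 8.24, 8.23, 8.13, 7.93 and 8.04 log2 CPM in the 3-week controls and 8.25, 7.95, 7.94, 8.07 and 8.14 in the 3-week HIRA livers. At 6 months the controls had 7.88, 7.89, 7.60, 7.87 and 8.02 and the HIRA livers 7.69, 7.70, 7.43, 7.59 and 6.79. The lowest of these values was that of the library that went against its label. All 5 HIRA livers at 6 months lay below all 5 at 3 weeks, while the 2 arms overlapped at each time.

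The Apom level was 23.2% lower with the HIRA guide at 6 months (-0.38 ± 0.13 on the log2 scale, adjusted p = 0.153) and 2.93% lower at 3 weeks (-0.04 ± 0.13, adjusted p = 0.973). Without HIRA 6 months replicate 5 the 6-month difference was -0.25 ± 0.10 (adjusted p = 0.178). From 3 weeks to 6 months, the level in the HIRA arm was 34.0% lower (-0.60 ± 0.13, adjusted p = 0.105), and in the controls it was 16.6% lower (-0.26 ± 0.13, adjusted p = 0.418). Without that library the difference in the HIRA arm was -0.47 ± 0.10 (adjusted p = 0.0670). DESeq2 called it with that library (adjusted p = 0.00368) and without it (adjusted p = 0.000457), while the edgeR fit of group means did not. The difference between the time courses of the arms was -0.34 ± 0.19 (adjusted p = 0.790), or -0.21 ± 0.13 without that library.

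**Figure D2:**
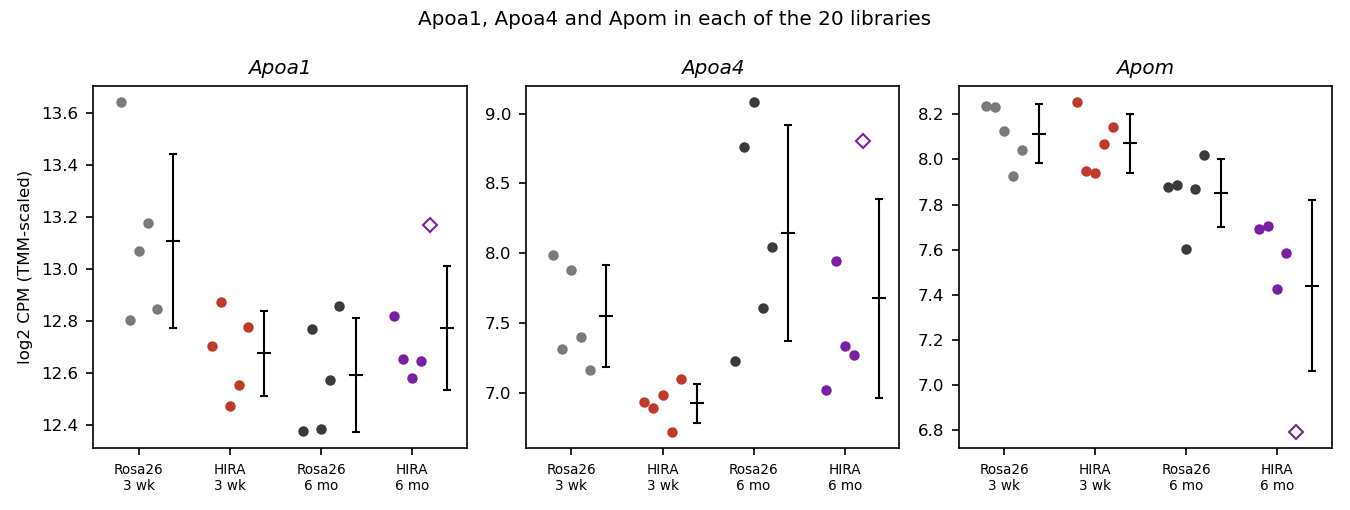
Log2 CPM (TMM-scaled) of Apoa1, Apoa4 and Apom in each library, by guide and time after injection; points are single livers, the open diamond is HIRA 6 months replicate 5, and bars are the mean ± SD of 5. In Apoa4 the 5 HIRA livers at 3 weeks lie between 6.72 and 7.10, below all 5 controls of that time.

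Apob, the structural protein of VLDL and the least variable of the 10, ranged from 11.25 to 11.41 log2 CPM in the 3-week controls, from 11.21 to 11.54 in the 3-week HIRA livers, from 11.02 to 11.47 in the 6-month controls and from 11.09 to 11.68 in the HIRA group at 6 months. Its differences between arms were 0.04 ± 0.12 at 3 weeks and 0.02 ± 0.12 at 6 months on the log2 scale. The 95% intervals, -0.20 to 0.28 and -0.22 to 0.26, give the sizes of difference, lower or higher, that these data leave for Apob.

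Apoe, the ligand by which remnant particles bind to the LDL receptor and its relatives, ranged from 13.90 to 14.58 log2 CPM over all 20 livers. The arms differed by -0.13 ± 0.13 at 3 weeks and by 0.01 ± 0.13 at 6 months. The 2 highest values were those of Rosa26 3 weeks replicate 1, at 14.58, and HIRA 6 months replicate 5, at 14.47. Apoc1, its neighbour on chromosome 7 and an inhibitor of remnant uptake, ranged from 11.08 to 11.88 and differed between arms by -0.17 ± 0.13 and -0.21 ± 0.13. Over both times the Apoc1 difference was -0.19 ± 0.09 (adjusted p = 0.288).

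Apoc3, an inhibitor of lipoprotein lipase, had medians of 10.91 and 10.86 log2 CPM at 3 weeks in the controls and the HIRA livers and of 10.83 and 10.61 at 6 months, with a range of 10.42 to 11.32 over all livers. Its differences between arms were -0.18 ± 0.12 and -0.23 ± 0.12, and over both times -0.21 ± 0.09 (adjusted p = 0.222). In the HIRA arm it was 16.2% lower at 6 months than at 3 weeks (-0.26 ± 0.12, adjusted p = 0.555). Apoa5, which promotes hydrolysis of triglyceride in the plasma, ranged from 9.84 to 10.57 log2 CPM, the lowest and the highest both being HIRA livers at 6 months, and differed by -0.10 ± 0.13 at 3 weeks and by 0.18 ± 0.13 at 6 months. Apoh, also called beta-2-glycoprotein I, which binds negatively charged phospholipid, ranged from 10.73 to 11.56 log2 CPM and differed by -0.08 ± 0.12 and 0.02 ± 0.12. The 6-month differences of Apob, Apoe and Apoh, without HIRA 6 months replicate 5, took the other sign, at -0.07 ± 0.11, -0.08 ± 0.13 and -0.05 ± 0.12, and none passed. The 3-week differences rested in part on Rosa26 3 weeks replicate 1, since without it they were -0.10 for Apoa2, -0.03 for Apoe, -0.09 for Apoc1, -0.10 for Apoc3, -0.07 for Apoa5, -0.01 for Apoh and -0.01 for Apom.

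**Figure D3:**
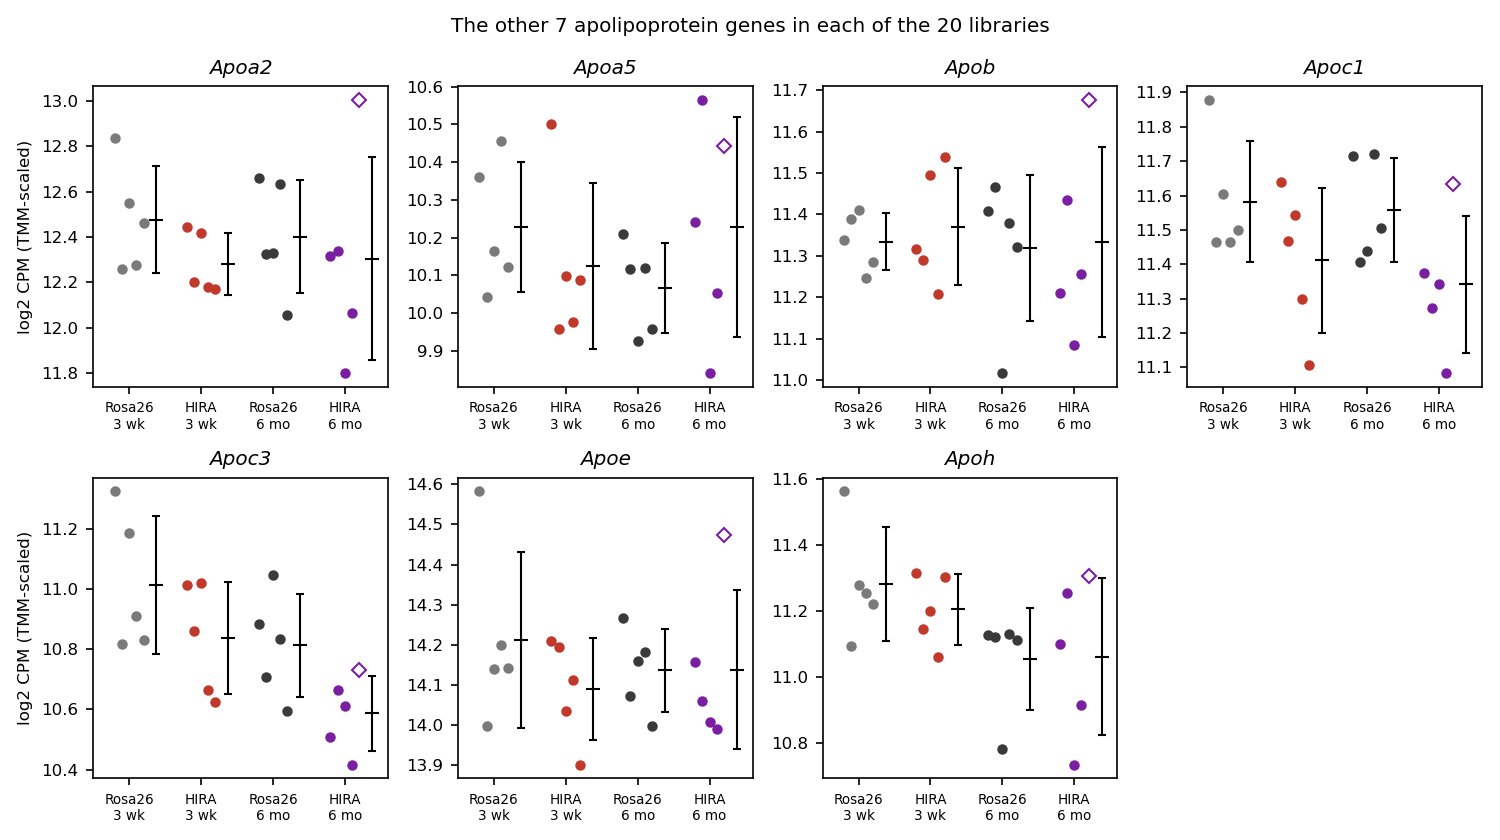
Log2 CPM (TMM-scaled) of Apoa2, Apoa5, Apob, Apoc1, Apoc3, Apoe and Apoh in each library, by guide and time after injection, with bars for the mean ± SD of 5 and an open diamond for HIRA 6 months replicate 5. The arms overlap at each time in every panel, and Rosa26 3 weeks replicate 1 is the highest 3-week control in all panels but those of Apoa5 and Apob.

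Apoa4, which rides on HDL and chylomicrons and is made in the intestine as well as the liver, varied most. At 3 weeks it had 7.99, 7.31, 7.88, 7.40 and 7.16 log2 CPM in the controls and 6.93, 6.89, 6.98, 6.72 and 7.10 in the HIRA group. Each HIRA liver was below each control at this time. At 6 months it had 7.23, 8.76, 9.08, 7.61 and 8.04 in the controls and 7.02, 7.94, 7.33, 7.27 and 8.81 in the HIRA group, and the groups overlapped. The highest HIRA value was again that of replicate 5.

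The Apoa4 level with the HIRA guide was 36.6% lower at 3 weeks (-0.66 ± 0.32 on the log2 scale, adjusted p = 0.572) and 28.1% lower at 6 months (-0.48 ± 0.32, adjusted p = 0.514). The 6-month difference turned on single livers, being -0.87 ± 0.29 without HIRA 6 months replicate 5 (adjusted p = 0.117) and -0.19 ± 0.31 without Rosa26 6 months replicate 3 (adjusted p = 0.808). Averaged over both times the difference was -0.57 ± 0.23 (95% interval -1.04 to -0.09, adjusted p = 0.200). Without HIRA 6 months replicate 5 this average was -0.77 ± 0.20 with an adjusted p of 0.0310, past the threshold, in a fit where 3.92% of 22703 genes were called. DESeq2 without that library gave -0.77 (adjusted p = 0.00322). The change in the guide effect between the times was 0.18 ± 0.45, or -0.22 ± 0.39 without replicate 5 (adjusted p = 0.976 and 0.934).

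From 3 weeks to 6 months the fitted Apoa4 level was 64.9% higher in the controls (0.72 ± 0.32, adjusted p = 0.345) and 87.1% higher in the HIRA arm (0.90 ± 0.32, adjusted p = 0.389), and neither difference passed the test. Without the library that went against its label, the HIRA value was 0.51 ± 0.28 (adjusted p = 0.570). Without Rosa26 6 months replicate 3 the control value was 0.44 ± 0.31 (adjusted p = 0.640). That control library also had the highest sum of 7 Kupffer cell and macrophage markers, led by Clec4f, at 929 CPM against 91.3 to 570 CPM in the 19 others. The part of those cells in its values was not tested.

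Since Apoa4 is an intestinal transcript too, markers of the small intestine were read beside it. Of 7 genes, Cdx1 had 0 counts in all libraries, and Sis and Cdx2 had 1 count each over all 20. The sum of the list, 39.2 to 106 CPM, came from Fabp2, which had 583 to 2016 counts, and Lgals4, both of which the liver also expresses. Vil1, with 1 to 62 counts, was the single member past the threshold, higher over both times with the HIRA guide (1.40 ± 0.34, adjusted p = 0.0266). That call was lost with limma-voom (adjusted p = 0.153) and without Rosa26 3 weeks replicate 5, HIRA 3 weeks replicate 5, Rosa26 6 months replicate 1 or 4 or HIRA 6 months replicate 1 (adjusted p = 0.0522 to 0.0599). Vil1 also passed without HIRA 6 months replicate 5 at each time (1.63 ± 0.34 and 1.48 ± 0.37, adjusted p = 0.0378 and 0.0450). Fabp2 had the same sign as Apoa4, at -0.35 ± 0.25 at 3 weeks and -0.38 ± 0.25 at 6 months between arms, and did not pass over both times (-0.37 ± 0.18, adjusted p = 0.304, or -0.47 ± 0.17 and 0.127 without HIRA 6 months replicate 5). Over the 4 tested genes of the intestinal list, the median log2 fold change between arms was 0.03 at 3 weeks and 0.75 at 6 months. Lgals4, without HIRA 6 months replicate 5, differed by -0.14 ± 0.33 at 3 weeks and 0.76 ± 0.35 at 6 months (edgeR adjusted p = 0.948 and 0.263). The 6 pancreas markers summed to 0.171 to 1.67 CPM.

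Over the 10 genes, 0 had an adjusted p under 0.05 in any of the 6 comparisons of the edgeR fit. Of all tested genes, the comparison of the guides called 0.197% at 3 weeks, 1.31% at 6 months (1.74% without HIRA 6 months replicate 5) and 2.85% over both times. The change in the guide effect called 0.0%, or 0 genes, with 6.62% at an unadjusted p under 0.05 and 0 genes in DESeq2 as well. The difference between 6 months and 3 weeks called 0.324% in the controls and 0.0656% in the HIRA arm (0.123% without that library). Since so few genes were called anywhere, 0 of 10 is near the background in each. DESeq2 called Apoa1 in the controls over time, where it called 2.24% of all genes, and Apom in the HIRA arm over time, where it called 0.619%, and limma-voom called none of the 10. Without HIRA 6 months replicate 5, DESeq2 called Apoa4 at 6 months (5.08% of all genes), Apoa4 and Apoc1 over both times (7.09%) and Apom in the HIRA arm over time (0.839%). With the replicate number as a block and without that library, edgeR called Apoa4 over both times (4.56% of all genes) and Apom in the HIRA arm over time (0.291%).

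At an unadjusted p under 0.05, Apoa1 alone was reached at 3 weeks, where 8.87% of all tested genes were, and Apom alone at 6 months, where 15.5% were. Over both times Apoa4, Apoc1, Apoc3 and Apom were reached, all lower with the HIRA guide, against 16.6% of all genes. Apoa1 was reached for the change in the guide effect (background 6.62%), Apoa1 and Apoa4 for time in the controls (12.8%), and Apoa4, Apoc3 and Apom for time in the HIRA arm (8.95%). Groups without overlap were found for Apoa4 at 3 weeks, against 2.69% of all genes, and for Apom over time in the HIRA arm, against 1.47%. None of the 10 was without overlap at 6 months (3.15% of all genes) or over time in the controls (3.5%).

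At 3 weeks 9 of the 10 genes were lower with the HIRA guide, with a median log2 fold change of -0.15 beside -0.01 over all tested genes and -0.05 over the 1055 genes with a mean of at least 7 log2 CPM. Without Rosa26 3 weeks replicate 1 again 9 were lower, with a median of -0.08. At 6 months 5 were lower and 5 higher, with a median of -0.02 beside 0.03 over all genes and -0.08 over the same 1055 genes. Without HIRA 6 months replicate 5, 8 were lower and 2 higher at 6 months, with a median of -0.17. The 3-week and 6-month comparisons use separate mice, while the comparisons over time use the same groups again. In the controls 9 of 10 genes were lower at 6 months than at 3 weeks (median -0.13 beside 0.00 over all genes), and in the HIRA arm 5 were (median 0.01 beside 0.03). In the HIRA arm 8 were lower without HIRA 6 months replicate 5 (median -0.13), and without Rosa26 3 weeks replicate 1, 6 were lower in the controls (median -0.06). The counts of genes lower over time in each arm thus turned on a single library. Both the 3-week comparison and that over time in the controls use the 3-week controls.

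**Figure D4:**
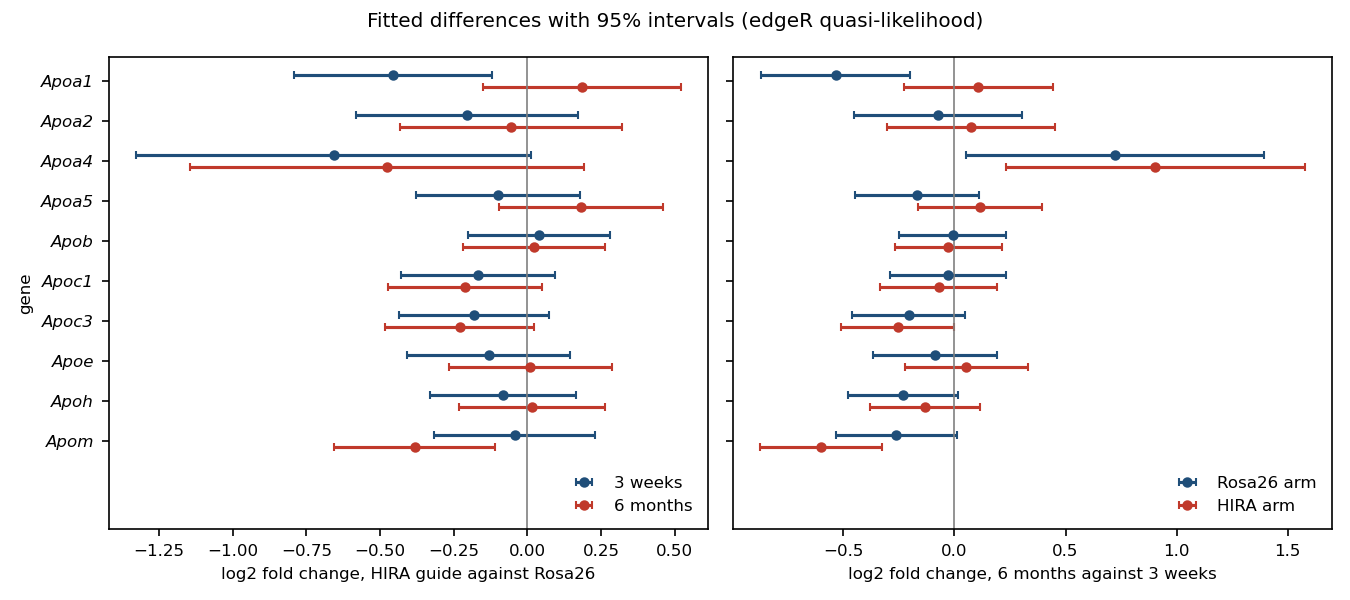
Fitted log2 fold changes of the 10 genes with 95% intervals (edgeR), for the HIRA guide against Rosa26 at 3 weeks and 6 months (left) and for 6 months against 3 weeks in each arm (right). The fold changes between arms run from -0.66 to 0.18, and the widest intervals are those of Apoa4.

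The genes differed in their spread between livers. The within-group SD was 0.56 log2 units for Apoa4, 0.29 for Apoa2, 0.25 for Apoa1, 0.22 for Apom and 0.21 for Apoa5, and it was between 0.16 and 0.19 for Apob, Apoe, Apoh, Apoc3 and Apoc1. Among 1055 genes with a mean of at least 7 log2 CPM the median SD was 0.18, and 95.9% of them had a smaller SD than Apoa4. From the lowest to the highest liver the Apoa4 level differed 5.14-fold, and the other 9 genes differed between 1.58-fold for Apob and 2.75-fold for Apom. The counting error was small beside this, since Apoa4 had 2404 to 12578 counts per library.

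The neighbours on chromosomes 7 and 9 were compared with the other pairs. After removal of the group means, the median Pearson's r over 20 libraries was 0.37 both for the 7 pairs within a cluster and for the 38 other pairs, and 38 of all 45 pairs were positive. The highest values were those of Apoc1 with Apoe (0.81), which are neighbours, and of Apoa2 with Apoe (0.80) and Apoa5 with Apoh (0.79), which are not. Within the chromosome 9 cluster, r was 0.21 for Apoa1 with Apoc3 and 0.45 for Apoa1 with Apoa4. Apom had the lowest values, down to -0.52 with Apoa4, which was -0.24 without the library that went against its label. All pairs share libraries and their scaling factors, and the values are given as a description. Apoa4 relative to Apoa1 was 1.82 to 2.74 counts per 100 Apoa1 counts in the 3-week controls, 1.58 to 2.22 in the HIRA livers of that time, 2.82 to 10.1 in the 6-month controls and 1.80 to 4.86 in the HIRA livers at 6 months. The highest of these was that of Rosa26 6 months replicate 3, and the next control had 6.21.

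**Figure D5:**
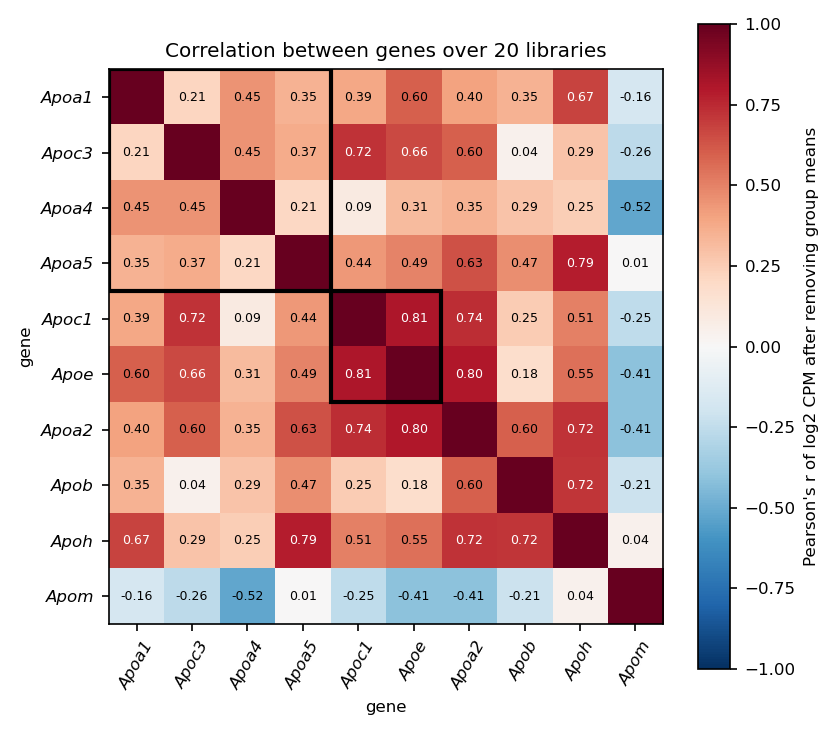
Pearson's r between the 10 genes over 20 libraries after removal of group means, with black frames around the chromosome 9 cluster (Apoa1, Apoc3, Apoa4, Apoa5) and the chromosome 7 cluster (Apoc1, Apoe). The values run from -0.52 for Apoa4 with Apom to 0.81 for Apoc1 with Apoe.

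The genes whose log2 CPM was most like that of Apoa4, the gene with the largest spread, were ranked over 20 libraries and 12894 genes. They were Slc22a15, a transporter (Pearson's r = 0.74), Trim26 (0.71), H2-Q10, a class Ib histocompatibility gene of the liver (0.71), Srd5a1, a steroid 5-alpha-reductase (0.71), and L3hypdh (0.71). After removal of group means the values were 0.51, 0.51, 0.61, 0.59 and 0.49. Without the 2 libraries farthest from the median of Apoa4 they were 0.62, 0.66, 0.63, 0.61 and 0.69. These are the top of a ranking, so high values are given by the choice.

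The other genes of lipoprotein biology were read from 5 lists. Of 10 further genes for apolipoproteins and proteins carried on lipoproteins, Apof, an inhibitor of lipid transfer, fell over both times with the HIRA guide (-0.35 ± 0.07, adjusted p = 0.0107) and none rose. Its values were 9.51 to 9.97 log2 CPM in the controls and 9.17 to 9.35 in the HIRA livers at 3 weeks and 9.44 to 9.84 and 9.09 to 9.46 at 6 months. The arms did not overlap at 3 weeks and met at 6 months, and Apof remained past the threshold without any single library. When HIRA 6 months replicate 5 was left out, Apoc4, a gene of the Apoc1 and Apoe cluster, passed as well (-0.42 ± 0.08, adjusted p = 0.00670, against -0.35 ± 0.10 and 0.0555 with it). The median of this list over both times was -0.28, beside 0.02 over all genes.

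Of 10 genes for assembly and secretion of lipoproteins, Pla2g12b, which helps to load VLDL with lipid, fell over both times (-0.36 ± 0.08, adjusted p = 0.0123) and none rose, with a list median of -0.03. On log2(FPKM + 0.1) this call was lost (adjusted p = 0.0543). Of 10 receptors and uptake genes, Sdc1, a heparan sulfate proteoglycan that takes up remnants, fell at 6 months (-0.59 ± 0.13, adjusted p = 0.0292) and over both times (-0.43 ± 0.09, adjusted p = 0.0115). The call over both times was lost on log2(FPKM + 1) and log2(FPKM + 0.1) (adjusted p = 0.0693 and 0.0721). The list median over both times was 0.06. When HIRA 6 months replicate 5 was left out, the receptor gene Sorl1 passed as higher over both times with the HIRA guide (0.46 ± 0.13, adjusted p = 0.0480). Vldlr then passed as higher in the controls over time (1.08 ± 0.19, adjusted p = 0.0107). That comparison holds no HIRA library, so it moved only through the spread estimate, scaling and adjustment shared by the whole fit. The 6-month call of Sdc1 was lost without Rosa26 6 months replicate 1, 4 or 5 or HIRA 6 months replicate 1 (adjusted p = 0.0507, 0.0828, 0.0648 and 0.0609). None of 12 remodelling enzymes and inhibitors passed in any edgeR comparison, with all 20 libraries or without HIRA 6 months replicate 5.

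None of 18 transcriptional regulators of apolipoprotein genes passed in any edgeR comparison of all 20 libraries. With HIRA 6 months replicate 5 left out, Nr1d1, a repressor of the clock, passed as higher with the HIRA guide at 3 weeks (1.43 ± 0.31, adjusted p = 0.0448) and in the controls over time (1.41 ± 0.31, adjusted p = 0.0360). Neither comparison holds that library, so both moved only through the spread estimate, scaling and adjustment shared by the whole fit. Hnf4a, the hepatocyte nuclear receptor with the most counts among them, had 8.82 to 9.67 log2 CPM over all livers and differed between arms by 0.03 ± 0.11 at 3 weeks and 0.17 ± 0.11 at 6 months. Among 8 hepatocyte markers, Asgr1, a receptor for glycoproteins that lack sialic acid, fell with the HIRA guide at 6 months (-0.34 ± 0.08, adjusted p = 0.0470) and over both times (-0.27 ± 0.06, adjusted p = 0.0145). The 6-month call of Asgr1 was kept without HIRA 6 months replicate 5 (adjusted p = 0.0416) and was lost without any of the 9 other libraries of that time, where the adjusted p was 0.0557 to 0.149. Both 6-month calls, of Sdc1 and of Asgr1, were also lost when the 10 libraries of that time were fitted alone (adjusted p = 0.162 for each). A replicate block in the fit of all 20 libraries ended the 6-month call of Asgr1 as well. Alb, the most abundant transcript, differed by 0.28 ± 0.17 and 0.35 ± 0.17 at the 2 times and did not pass.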

How the data were processed

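Poly-A RNA of 20 livers was sequenced from strand-marking libraries, and the deposited table of counts per gene was used as the measurement. Per the labels' processing notes the authors used STAR, HTSeq and Cufflinks with mm10, while the study's methods name STAR and HOMER, so the counter is not settled here, and whether strand was used in counting is not given in the sources used here. The authors also deposited an FPKM table, with 629498 blank cells, among them 2 values of Apob. FPKM served as log2(FPKM + 1) and log2(FPKM + 0.1) in limma alternatives and for the order of levels.

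Genes with at least 10 counts in total were fitted with edgeR 4.0.16 (R 4.3.3; TMM scaling, quasi-likelihood F-test, 4 group means over all 20 libraries, prior count 2), with Benjamini-Hochberg adjustment over all genes tested and a threshold of 0.05 on the adjusted p. The study's further limit, a log2 fold change beyond 1 in size, was not used for the calls given here. The ± values of fold changes are SE. Alternatives were DESeq2 1.42.0, DESeq2's size factors (RLE) in edgeR, limma-voom (limma 3.58.1), other filters on low counts, a replicate block, each library left out in turn and fits of 10 libraries of a single time. DESeq2 and the block without HIRA 6 months replicate 5 were added after seeing the data. Levels, spread and correlations were computed with Python 3.11.15 (pandas 2.3.3, scipy 1.17.1) and drawn with matplotlib 3.10.9.

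The members and lists were chosen with earlier results of these data known. Named beside the 10 genes were Hira, Alb, list genes past the threshold or else the gene of a list with most counts, markers with most counts or at 0, and the 5 genes most like the member with the largest spread. A gene that this rule would name is not reported here. The serum amyloid genes were chosen after their values were seen. Groups followed the labels. The labels do not say that replicates are independent in more than being separate samples, so p-values measure the spread between samples. No pair of libraries was identical or agreed within sampling noise (smallest chi-square per degree of freedom in a group 15.1). Exons of Apoa4 and Apoh overlap those of Gm47528 and Prkca, which had 0.246% and 0.663% as many counts. On counts simulated for the 3-week comparison with 22867 genes, edgeR recovered 90 of 100 genes changed by 1.5 and 68 of 100 changed by 0.75 on the log2 scale, with 10 false calls. Both changes exceed the largest 3-week difference of the 10 genes, -0.66 for Apoa4. These rates therefore do not show how often differences of their size would be found. The depth, 19916430 to 24079736 counts, gave counting errors small beside the spread between livers for all 10 genes.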

Additional observations from a re-analysis of the deposited data

Results flagged for a closer look

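In 2 of 40 sets of 5 livers (10 genes in 4 groups), a single liver lay far from the other 4 by Dixon's test, and chance gives about 1 in 20, or 2. Apoa5 was at 10.50 log2 CPM in HIRA 3 weeks replicate 1, against 9.96 to 10.10 in the other 4 livers of the group. Apoh was at 10.78 log2 CPM in Rosa26 6 months replicate 3, against 11.11 to 11.13 in the other 4.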

How the results depend on the processing

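None of the 10 genes passed the threshold in any comparison of edgeR, RLE, limma-voom, the other filters, the FPKM fits or the fits of a single time. DESeq2 called 1 in the controls over time (Apoa1) and 1 in the HIRA arm over time (Apom). Without HIRA 6 months replicate 5, DESeq2 called 1 at 6 months (Apoa4), 2 over both times (Apoa4 and Apoc1) and 1 in the HIRA arm over time (Apom). Leaving out each library in turn gave 0 to 1 called over both times, the 1 being Apoa4 without that same library, and 0 in every other comparison. Of 306 fold changes under the other alternatives, 288 kept direction and side, 8 came to pass the threshold and 10, of 4 results, took the other sign. Of 370 with a library left out, 354 kept both, 1 came to pass and 15, of 6 results, took the other sign. The cause was not tested in any of these.

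The results that took the other sign were near 0 or rested on 1 liver. At 6 months, Apoe went to -0.00364 with DESeq2 and to -0.00364 with RLE. Without HIRA 6 months replicate 5, DESeq2 and the replicate block gave -0.10 and -0.12 for Apoe, -0.090 and -0.065 for Apob, -0.062 and -0.042 for Apoh, and -0.24 and -0.18 for the change of the guide effect in Apoa4. With each library left out, the 6-month values ranged from -0.27 (without HIRA 6 months replicate 5) to 0.058 for Apoa2, -0.074 to 0.081 for Apob, -0.084 to 0.047 for Apoe and -0.047 to 0.091 for Apoh. Apob at 3 weeks ranged from -0.00364 to 0.080, and the Apoa4 change from -0.22 to 0.46.

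A replicate block was fitted because the groups share numbers 1 to 5. Deviations of same-numbered libraries correlated at -0.33 to 0.33 over 30 pairs, 14 of them over 0.1, and 9 of 20 libraries correlated best with their own number, so the numbers were not shown to pair the livers. With the block, 0 of the 10 genes passed in any comparison. With the block and without HIRA 6 months replicate 5, 1 passed over both times (Apoa4) and 1 in the HIRA arm over time (Apom). The block ended the 6-month call of Asgr1 (adjusted p = 0.0525) and the call of Saa2 over both times (adjusted p = 0.227), and the calls of Apof, Pla2g12b and Sdc1 held. With the block and without that library the 6-month call of Sdc1 was lost (adjusted p = 0.0633).

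The counts of genes called over the whole table depended on the tool. In the order 3 weeks, 6 months, both times, change, controls over time and HIRA arm over time, edgeR called 45, 299, 651, 0, 74 and 15, DESeq2 228, 895, 1277, 0, 511 and 141, limma-voom 23, 297, 632, 0, 58 and 7, and the block 54, 324, 670, 0, 151 and 37. With at least 1 CPM in 5 libraries the counts were 90, 517, 889, 0, 179 and 16, without a filter 55, 250, 542, 0, 93 and 30, and on log2(FPKM + 0.1) 35, 187, 493, 4, 9 and 9. Fits of a single time called 149 at 3 weeks and 0 at 6 months (2629 at an unadjusted p under 0.05), and with them the 6-month calls of Sdc1 and Asgr1 were lost (adjusted p = 0.162 and 0.162). Sdc1 was also lost on log2(FPKM + 1) at 6 months and over both times (adjusted p = 0.0908 and 0.0693). Pla2g12b was lost on log2(FPKM + 0.1) alone (adjusted p = 0.0543). With a library left out the counts ranged from 4 to 57, 49 to 395, 411 to 890, 0 to 1, 1 to 136 and 5 to 31.

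Without the 10 other genes with most counts, the share of the 10 apolipoprotein genes was 5.61%, 5.16%, 4.96% and 5.18% in Rosa26 and HIRA at 3 weeks and Rosa26 and HIRA at 6 months. By FPKM the ranks were 1 for Apoe, 2 for Apoa2, 3 for Apoc1, 4 for Apoa1, 8 for Apob and 9 for Apom, against 2, 1, 4, 3, 9 and 8 by CPM per kb. With 5 livers a group and an SE near 0.13, differences of the size of most of these values could not be told from 0.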

Other observations

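Saa1 and Saa2, acute-phase apolipoproteins of HDL that are not among the 10 genes, varied far more than any of them. Saa1 had 975 to 82731 counts (median 2320) in the 3-week controls, 1452 to 10842 (4155) in the HIRA livers of that time, 8230 to 71984 (42523) in the 6-month controls and 1551 to 10745 (4055) in the HIRA livers at 6 months. Saa2 had 515 to 80495, 642 to 5831, 5921 to 69161 and 1018 to 9019 counts in the same order. At 3 weeks the medians were higher in the HIRA livers (for Saa2 2461 against 1293 counts), while the fitted differences were -2.06 ± 0.97 for Saa1 and -2.85 ± 1.11 for Saa2 (edgeR adjusted p = 0.550 and 0.425). The control with 82731 and 80495 counts was Rosa26 3 weeks replicate 2. At 6 months the difference between arms was -2.85 ± 1.00 on the log2 scale for Saa1 and -3.15 ± 1.12 for Saa2 (edgeR adjusted p = 0.159 and 0.168). Over both times it was -2.46 for Saa1 (adjusted p = 0.0596, or 0.0485 without HIRA 6 months replicate 5) and -3.00 ± 0.79 for Saa2, which passed (adjusted p = 0.0426). That call was lost in 11 of 20 fits that left out a library (-1.53 without Rosa26 3 weeks replicate 2, adjusted p = 0.186), with limma-voom (adjusted p = 0.207), on log2(FPKM + 1) (adjusted p = 0.303) and where a replicate block was fitted (0.227), while DESeq2 kept it (adjusted p = 0.00231). The genes are near-identical copies whose reads may be split between them in counting.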
